A study of Mus musculus with 10 samples.

Results

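The S100 proteins and the annexins are 2 families of calcium-binding proteins, and their transcripts were compared here between luminal and basal cells of the mouse mammary gland. Genes were taken by symbol, as S100 followed by a letter and a number, by b, g, z or pbp, or as Anxa followed by a number. The rule found 29 of the 24594 genes in the count table, 17 of the S100 group and 12 annexins. One of the 17, S100pbp, encodes a protein that binds an S100 protein and is not itself an S100 protein. S100a10 and S100a11, the S100 partners of Anxa2 and Anxa1, lie near each other on chromosome 3.

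S100 proteins are small proteins with a pair of EF-hands, the helix-loop-helix motif that holds a calcium ion. They mostly act as dimers that bind a target protein once calcium rises, although S100a10 no longer binds calcium. Annexins hold calcium in a different fold and use it to dock on acidic phospholipids, and they take part in membrane traffic and in the closing of membrane wounds. Several annexins carry an S100 dimer on their N-terminal tail, and in the mammary gland calcium is both a signal for contraction of the basal layer and a product that luminal cells secrete into milk.

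The 10 libraries came from virgin wild type C57BL/6J mice whose mammary epithelium was dissociated with enzymes and sorted on EpCAM and CD49f into luminal cells, which line the ducts, and basal cells, the contractile outer layer. There were 5 libraries of each cell type, with 13203146 to 17565471 counts in luminal and 13676558 to 17998165 in basal libraries. Both groups share the wild type genotype, and the labels give no treatment and no age. The study's sorting protocol also removed cells that carried the blood and endothelial markers TER-119, CD31 and CD45. Same-numbered luminal and basal libraries share a leading number in their descriptions, which was read as the animal, and whether tissue of several animals was pooled is not stated. The study's methods describe biological replicates for each RNA sequencing condition, in a smaller number than the 5 libraries per cell type used here. Nothing else says how the libraries of a group are related, so p-values measure the spread between these samples. No marker that parts luminal progenitors from mature luminal cells is given for the sort of these libraries.

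Each title names the other cell type from the one given by the source name, the cell type label and the letter in the description, and the last 3 were followed. The cell type markers went with that choice. The 9 luminal markers were all higher in the libraries labelled luminal, with log2 fold changes from 2.20 (Krt8) to 10.21 (Prlr). All 9 basal markers were lower there, from -6.83 (Krt17) to -9.45 (Myh11). The neutrophil genes Elane and Retnlg, the lymphocyte genes Cd3e and Nkg7 and the fat cell gene Adipoq had no count in any library. Fibroblast markers summed to between 28.0 and 119 CPM (counts scaled to the library's depth with the TMM factors of edgeR) in luminal and between 39.9 and 57.6 CPM in basal libraries. Sums of other marker lists also differed between the cell types. Neutrophil markers summed to between 917 and 3288 CPM in luminal and between 406 and 822 CPM in basal libraries, but without Ltf and Lcn2, which mammary epithelium also makes, to no more than 1.1 CPM in any library. In the endothelial, erythroid and adipocyte lists 1 gene carried the difference. Endothelial markers summed to between 71.2 and 117 CPM in luminal and between 10.9 and 20.2 CPM in basal libraries, but without the most counted gene to between 4.38 and 7.94 CPM and between 9.67 and 17.7 CPM, in the opposite direction. Erythroid markers summed to between 4.74 and 18.4 CPM and between 0.614 and 2.28 CPM, and without their most counted gene to between 1.17 and 2.54 CPM in luminal libraries. Adipocyte markers summed to between 1.94 and 3.13 CPM in luminal and between 4.02 and 9.13 CPM in basal libraries, and without their most counted gene to between 1.08 and 2.6 CPM and between 0.155 and 1.31 CPM. The part of these lists in the results was not tested. In such bulk samples fewer cells of a type and less RNA per cell cannot be told apart.

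Of the 29 genes, 21 had enough counts to be tested. In edgeR's quasi-likelihood test, 12 were more abundant in luminal cells and 4 in basal cells at an adjusted p under 0.05, and 5 did not pass. These 16 are 76.2% of the members tested, beside 64.8% of all 14609 genes tested (33.6% toward luminal and 31.2% toward basal cells). The S100 genes lay mostly on the luminal side. Of the 10 tested, 8 were higher in luminal cells, S100pbp was higher in basal cells and S100a10 did not pass, and the median log2 fold change, luminal against basal, was 1.87. The annexins were split. Of the 11 tested, 4 were higher in luminal cells (Anxa1, Anxa2, Anxa4 and Anxa9), 3 were higher in basal cells (Anxa5, Anxa6 and Anxa13) and 4 did not pass, with a median of 0.13. The median over all genes tested was 0.05. The 2 groups of libraries shared no part of their CPM range in 13 of the 21 genes, 9 of them luminal and 4 basal in direction, beside 50.1% of all genes tested. S100a4, S100g, Anxa9 and Anxa13 reached the count filter through the libraries where they were high. With at least 10 counts required in every library, 17 members were tested, of which 9 were called toward luminal and 3 toward basal cells (70.6%, beside 65.0% of all genes).

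S100 transcripts are short, and differences between the cell types moved with transcript length. The longest coding transcript of each S100 gene has 315 to 1484 bases, apart from the 4426 bases of S100pbp. Over all tested genes with a known length, the 634 with transcripts under 800 bases had a median log2 fold change of 0.605 and the 2907 of at least 5000 bases had -0.333. Short genes also deviated between libraries of one cell type. Their median log2 deviation from the group mean was -0.388, 0.2, -0.099, 0.414 and -0.048 in luminal replicates 1 to 5, and -0.023, -0.074, -0.024, 0.266 and -0.1 in basal replicates 1 to 5. Luminal replicates 2 and 4 and basal replicate 4 were thus high, and luminal replicate 1 was low. A fit with offsets for length and GC content, added after the data were seen, lowered the median of the S100 genes from 1.87 to 1.04 and that of the annexins from 0.13 to -0.06. The offsets follow each library's deviations from the gene means over the libraries of both cell types. They therefore also remove any average difference between the cell types that goes with length or GC content, whatever its source. With these offsets 9 members were called toward luminal and 6 toward basal cells, together 71.4% of members beside 63.9% of all genes. Values from this fit stand beside the results of called members below, and for named genes of the pathway lists only where a call changed. How much of each difference goes with transcript length was not tested further.

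**Figure D1:**
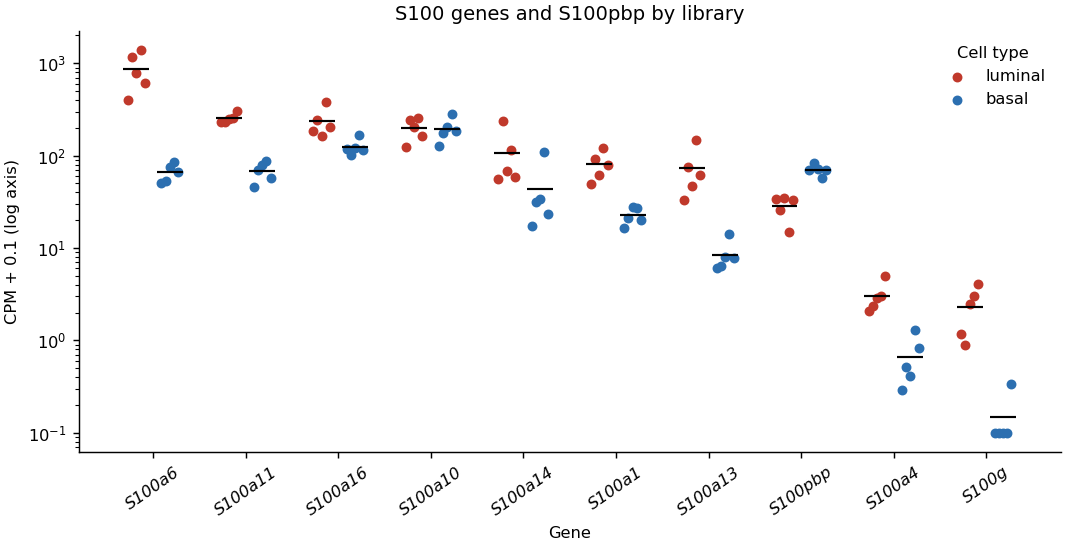
CPM plus 0.1 (log axis) of the 10 tested genes of the S100 group, in order of the luminal mean. Each point is 1 library (5 luminal, 5 basal, in replicate order from left to right) and black lines are group means. Luminal libraries lie above basal libraries without overlap for S100a6, S100a11, S100a1, S100a13, S100a4 and S100g, and below them for S100pbp.

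The most abundant S100 transcript in luminal cells was S100a6 (calcyclin, a protein of proliferating cells that binds Anxa11 and the ubiquitin ligase adaptor encoded by Cacybp). S100a6 (Entrez 20200, GRCm38.p6 chromosome 3, 90612894 to 90614414) stood at 399, 1156, 794, 1380 and 618 CPM in luminal replicates 1 to 5. In basal replicates 1 to 5 it stood at 50.8, 53.1, 74.4, 84.3 and 66.5 CPM. Every luminal library was above every basal one, and the luminal libraries spread more widely, with replicate 1 lowest and replicates 2 and 4 highest. The difference was 13.2-fold (log2 3.72 ± 0.32 SE, edgeR adjusted p = 1.43e-07), and 2.88 on the log2 scale with the offsets (adjusted p = 4.07e-08). Only 0.746% of the genes tested had a higher mean CPM in luminal cells, against 24.4% in basal cells. Luminal replicate 1 and replicates 2 and 4 were also the lowest and the highest luminal libraries for short genes as a whole.

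S100a11 and S100a13, both of which also leave the cell by routes other than the secretory pathway, were higher in luminal cells as well. S100a11 (chromosome 3, 93520496 to 93526288), the partner of Anxa1, was at 233, 229, 252, 256 and 301 CPM in luminal and at 45.9, 69.0, 79.8, 87.2 and 57.4 CPM in basal replicates 1 to 5. Its luminal libraries lay close together and far above the basal ones, a 3.75-fold difference (log2 1.91 ± 0.18 SE, edgeR adjusted p = 3.47e-07), with 1.08 under the offsets. S100a13 was at 33.2, 75.4, 46.7, 149 and 62.3 CPM in luminal and at 5.99, 6.34, 7.97, 13.9 and 7.61 CPM in basal libraries. Replicate 4 was the highest of both cell types and the groups did not overlap (log2 3.13 ± 0.38 SE, edgeR adjusted p = 5.4e-06; offsets 2.27).

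S100a1, best known for its binding to calcium-handling proteins of muscle, was at 49.0, 91.4, 62.1, 122 and 78.2 CPM in luminal libraries. Its basal values were 16.2, 21.1, 27.9, 27.2 and 19.9 CPM, so that the contractile cell type had less of it in all 5 animals. The log2 fold change was 1.84 ± 0.24 SE (edgeR adjusted p = 9.94e-06; offsets 1.00).

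S100a14 and S100a16, epithelial members that lie side by side, differed less. S100a16 was at 183, 242, 165, 384 and 204 CPM in luminal and at 119, 102, 122, 167 and 114 CPM in basal libraries. The lowest luminal library fell just below the highest basal one, although luminal was higher in all 5 animals (log2 0.92 ± 0.22 SE, edgeR adjusted p = 0.00222). With the offsets the log2 fold change was 0.33 and did not pass (adjusted p = 0.0925). S100a14 was at 56.3, 236, 67.7, 115 and 59.0 CPM in luminal and at 17, 31.2, 33.4, 110 and 23.3 CPM in basal libraries. Luminal replicate 2 and basal replicate 4 stood far above the rest of their groups. Basal replicate 4 lay within the luminal range, and the groups overlapped through this library. Its log2 fold change of 1.31 ± 0.50 SE passed narrowly (edgeR adjusted p = 0.0334). It did not pass with DESeq2 (adjusted p = 0.0509), with the offsets (0.79, adjusted p = 0.124), or when luminal replicate 2 or any of basal replicates 1, 2, 3 and 5 was left out, where the lowest value was 0.82. Without basal replicate 4 it was 2.02, and it passed with the replicate block alone (adjusted p = 0.00452) and with block and offsets together (adjusted p = 0.0422).

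At low levels, S100a4 and S100g were also higher in luminal cells. S100a4 (a binding partner of non-muscle myosin, also abundant in fibroblasts and leukocytes) was at 2.0, 2.26, 2.76, 2.90 and 4.82 CPM in luminal and at 0.187, 0.409, 0.310, 1.19 and 0.719 CPM in basal libraries. Every luminal library was above every basal one, with a log2 fold change of 2.36 ± 0.50 SE (edgeR adjusted p = 0.000826; offsets 1.57). Of its 584 exon bases, 302 are shared with the gene model Gm42674 on the same strand, so reads there could have been counted for either. The 12 leukocyte markers summed to 23.9 to 32.5 CPM in luminal and to 48.9 to 77.9 CPM in basal libraries, and their part in the S100a4 difference was not tested. Left without Cd74, Cd68 and Csf1r, a choice made after their values were seen, they summed to 4.5 to 12.1 CPM in luminal and to 0.774 to 4.25 CPM in basal libraries. S100g (calbindin-D9k, a vitamin D-dependent calcium buffer of the gut and uterus) had 171 counts in the luminal libraries together and 4 in the basal libraries together. It was at 1.06, 0.790, 2.39, 2.90 and 3.93 CPM in luminal libraries, and only basal replicate 5 had any count (0.240 CPM). The test passed (edgeR adjusted p = 0.000117). The fitted log2 fold change of 5.22 ± 0.87 SE (offsets 4.44) depends on the prior count at such levels. It was 8.11 without basal replicate 5, which held all 4 basal counts.

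S100a10 was the 1 tested S100 protein gene that did not pass the test. It forms a tetramer with Anxa2 and helps to place plasminogen at the cell surface. It was at 124, 244, 203, 257 and 163 CPM in luminal and at 128, 174, 206, 284 and 184 CPM in basal libraries. The 2 ranges lay almost on top of each other. The log2 fold change was 0.02 ± 0.23 SE (95% confidence interval -0.47 to 0.51, edgeR adjusted p = 0.946). Its sign depended on the scaling, and with the length and GC offsets S100a10 was lower in luminal cells, at -0.76 (adjusted p = 0.000574).

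S100pbp was the only tested gene of the group called higher in basal cells, at 33.5, 25.8, 34.8, 14.7 and 32.7 CPM in luminal and 70.6, 84.0, 70.8, 56.8 and 69.6 CPM in basal libraries. All luminal libraries lay below all basal ones (log2 -1.31 ± 0.21 SE, edgeR adjusted p = 7.51e-05; offsets -1.13).

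The other 7 S100 genes did not reach the count filter. The limit that a count of 0 allows, 3 counts, was between 0.158 and 0.232 CPM in these libraries and covers counting error only. S100a5 had no count in any library, S100a9 had 1 and S100a2 had 2. S100a3 had 22 counts in luminal and 16 in basal libraries, and S100z had 24 and 14. S100a8, which pairs with S100a9 to form calprotectin in neutrophils, had 12 counts in luminal libraries, 11 of them in replicate 4, and 7 in basal libraries. S100b, a marker of glia, had 16 counts in luminal libraries and 23 in basal libraries, all of the latter in replicate 4.

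**Figure D2:**
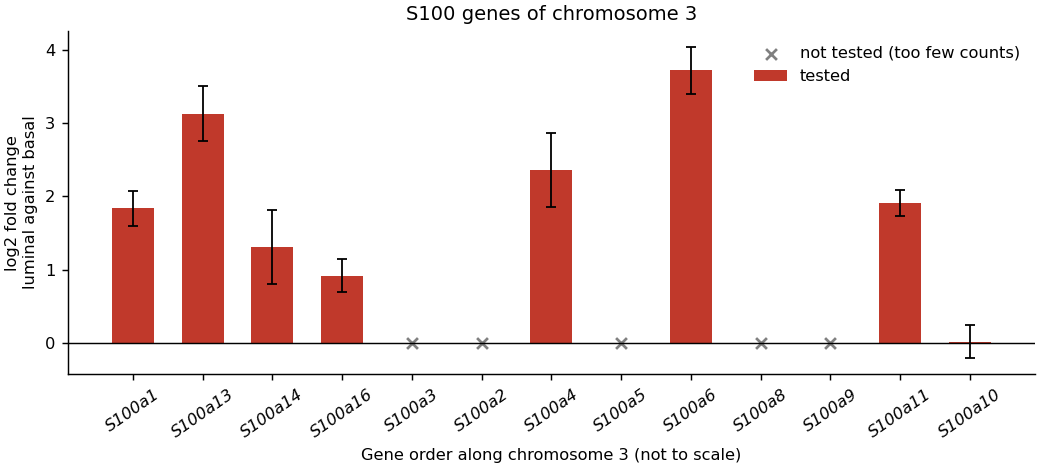
Log2 fold change, luminal against basal (bars, with the SE), of the 13 S100 genes of chromosome 3 in their order along the chromosome. Crosses mark the 5 genes with too few counts to test. The tested genes reach from 0.02 (S100a10) to 3.72 (S100a6).

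Of the S100 genes, 13 lie on chromosome 3, where 11 stand between S100a1 (start at 90511034) and S100a9 (end at 90695721) and the pair S100a11 and S100a10 lies further along. Of these 13, 8 were tested and 7 were higher in luminal cells, beside 33.6% of all genes tested. With the offsets 5 of the 8 were called toward luminal cells, and S100a10 toward basal cells. S100a4 reached the filter through its luminal libraries. Genes that did not reach the filter (S100a3, S100a2, S100a5, S100a8 and S100a9) stood between genes that did, with S100a5 between S100a4 and S100a6. S100a1 and S100a13 start next to each other on opposite strands, and both were higher in luminal cells in all 5 animals.

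**Figure D3:**
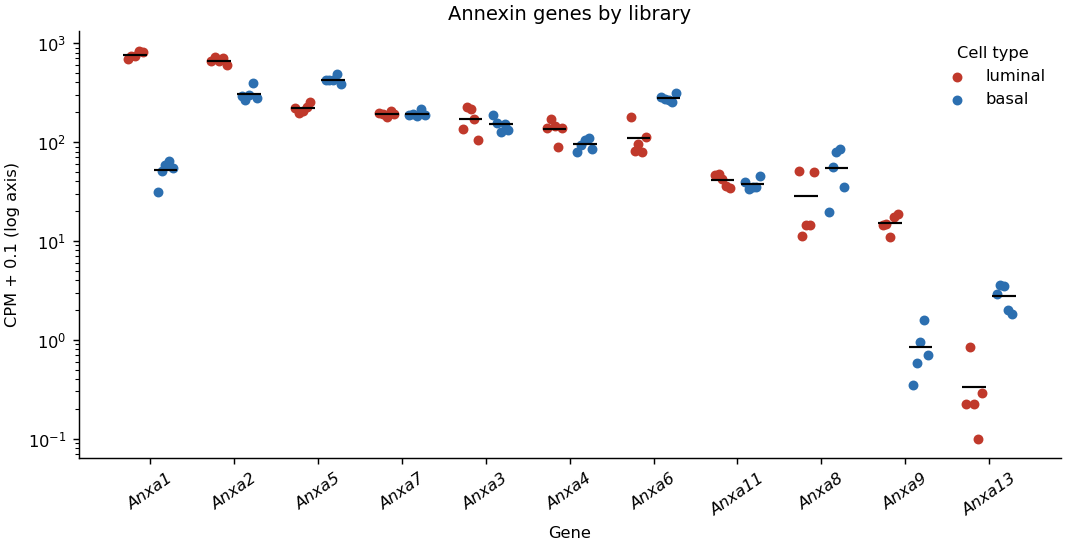
CPM plus 0.1 (log axis) of the 11 tested annexin genes, in order of the luminal mean. Each point is 1 library (5 luminal, 5 basal, in replicate order from left to right) and black lines are group means. Anxa1, Anxa2 and Anxa9 are higher in every luminal library, and Anxa5, Anxa6 and Anxa13 in every basal library.

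Anxa1 showed the most significant difference of all members. Anxa1, the glucocorticoid-induced annexin that dampens inflammation through formyl peptide receptors, lies on chromosome 19 (20373434 to 20390671). It stood at 687, 746, 737, 839 and 816 CPM in luminal libraries. In basal libraries it stood at 31.1, 50.6, 58.9, 64.8 and 55.1 CPM. No basal library came near the luminal range, and the difference was 14.7-fold (log2 3.88 ± 0.20 SE, edgeR adjusted p = 1.19e-09; offsets 3.57). Its luminal libraries were also among the tightest, since 95.6% of the genes tested had a larger SD of log2 CPM there.

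Anxa2, the partner of S100a10 and the most counted annexin over both cell types, was at 652, 717, 661, 699 and 603 CPM in luminal libraries. Its basal values were 294, 263, 302, 399 and 280 CPM, replicate 4 being the highest. The groups did not overlap (2.17-fold, log2 1.12 ± 0.15 SE, edgeR adjusted p = 1.41e-05; offsets 0.72). Anxa9, an annexin whose calcium-binding sites have been lost, was at 14.3, 14.6, 10.9, 17.3 and 18.8 CPM in luminal and at 0.249, 0.478, 0.851, 1.5 and 0.599 CPM in basal libraries. This was the largest luminal fold among the annexins, at 20.4-fold (log2 4.35 ± 0.37 SE, edgeR adjusted p = 1.65e-07; offsets 4.12). Anxa9 shares 165 exon bases with its neighbours Mindy1 and 6330562C20Rik.

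Anxa4, an annexin of secretory epithelia, differed little. It was at 138, 170, 145, 89.6 and 138 CPM in luminal and at 78.5, 92.6, 105, 110 and 85.1 CPM in basal libraries. Luminal replicate 4 lay below its basal counterpart, and the other 4 luminal libraries lay above all basal ones (log2 0.53 ± 0.17 SE, edgeR adjusted p = 0.012). With the offsets it was 0.36 and did not pass (adjusted p = 0.0718).

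On the basal side, Anxa5 (the annexin used as a probe for exposed phosphatidylserine) was at 422, 427, 424, 482 and 387 CPM in basal and at 222, 195, 206, 225 and 255 CPM in luminal libraries. Every basal library was above every luminal one, a 1.94-fold difference (log2 -0.96 ± 0.13 SE, edgeR adjusted p = 1.75e-05; offsets -1.26). Anxa6, the large annexin with a doubled core that is found in muscle, was at 286, 274, 264, 256 and 311 CPM in basal libraries. In luminal libraries it was at 177, 80.2, 94.7, 79.3 and 112 CPM, with replicate 1 apart at the top and still below the basal range. The difference was 2.56-fold (log2 -1.36 ± 0.20 SE, edgeR adjusted p = 4.55e-05; offsets -1.50). Anxa13, best known from the gut epithelium, was scarce but followed the same direction, with 199 counts in basal and 21 in luminal libraries. It was at 2.81, 3.48, 3.40, 1.88 and 1.74 CPM in basal and at 0.125, 0.737, 0.123, 0 and 0.190 CPM in luminal libraries (log2 -3.38 ± 0.64 SE, edgeR adjusted p = 0.000337; offsets -3.85). Without luminal replicate 2, which held 14 of the 21 luminal counts, the log2 fold change was -4.45.

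Anxa3, Anxa7 and Anxa11 did not pass the test. Anxa7 (synexin, which aggregates secretory granules) ranged from 179 to 208 CPM in luminal and from 182 to 216 CPM in basal libraries, with a 95% confidence interval of the log2 fold change from -0.24 to 0.25 (edgeR adjusted p = 0.967). It was also one of the steadiest genes, since 98.9% of genes in luminal and 95.1% in basal libraries had a larger SD of log2 CPM. Anxa11, which links RNA granules to lysosomes, ranged from 34.0 to 47.2 CPM and from 33.0 to 45.2 CPM (interval -0.19 to 0.44, edgeR adjusted p = 0.472). Anxa3 ranged from 104 to 226 CPM in luminal and from 126 to 187 CPM in basal libraries (interval -0.26 to 0.61, edgeR adjusted p = 0.46). The signs of these 3 genes turned with the offsets. Anxa2, Anxa3, Anxa4 and Anxa11 each share 75 to 113 exon bases with a neighbouring gene model, whose reads could not be told apart there. Anxa10, best known from the stomach, did not reach the count filter, with 3 counts in luminal and 3 in basal libraries.

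Anxa8 varied more between libraries than nearly any other gene. Anxa8 (an annexin of stratified and ductal epithelia) was at 50.9, 11, 14.5, 14.5 and 49.6 CPM in luminal libraries. In basal libraries it was at 19.5, 55.2, 79.8, 84.7 and 34.6 CPM. The luminal libraries fell into a high pair (replicates 1 and 5) and a low set (replicates 2, 3 and 4), while the basal libraries of the same animals had the opposite order. The log2 difference of luminal against basal was 1.36 and 0.51 in animals 1 and 5, and -2.27, -2.42 and -2.50 in animals 2, 3 and 4. The fitted value was -0.96 ± 0.47 SE (95% confidence interval -1.97 to 0.05, edgeR adjusted p = 0.0882). It passed without luminal replicate 1 (-1.27), luminal replicate 5 (-1.27) or basal replicate 1 (-1.19), and with the offsets (-1.19, adjusted p = 0.0391), but not with the offsets and the replicate block together (adjusted p = 0.0722). Only 1.33% of genes in luminal and 1.24% in basal libraries had a larger SD of log2 CPM.

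Of the 9 luminal markers, 4 (Elf5, Kit, Pgr and Cd14) had luminal replicates 1 and 5 as their 2 highest luminal libraries, as Anxa8 did, and the other 5 did not. Cd14, the endotoxin co-receptor, was at 2061, 461, 482, 488 and 1184 CPM in luminal replicates 1 to 5. Kit, the receptor that marks luminal progenitors, was at 288, 148, 129, 138 and 208 CPM. Pgr, the progesterone receptor of mature luminal cells, was at 611, 86.0, 248, 253 and 426 CPM. Esr1, the oestrogen receptor of mature luminal cells, did not follow, at 101, 106, 112, 85.7 and 108 CPM. S100a6 was lowest in luminal replicates 1 and 5. These markers were picked after their values were seen, and their part in the spread of Anxa8 and S100a6 was not tested.

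**Figure D4:**
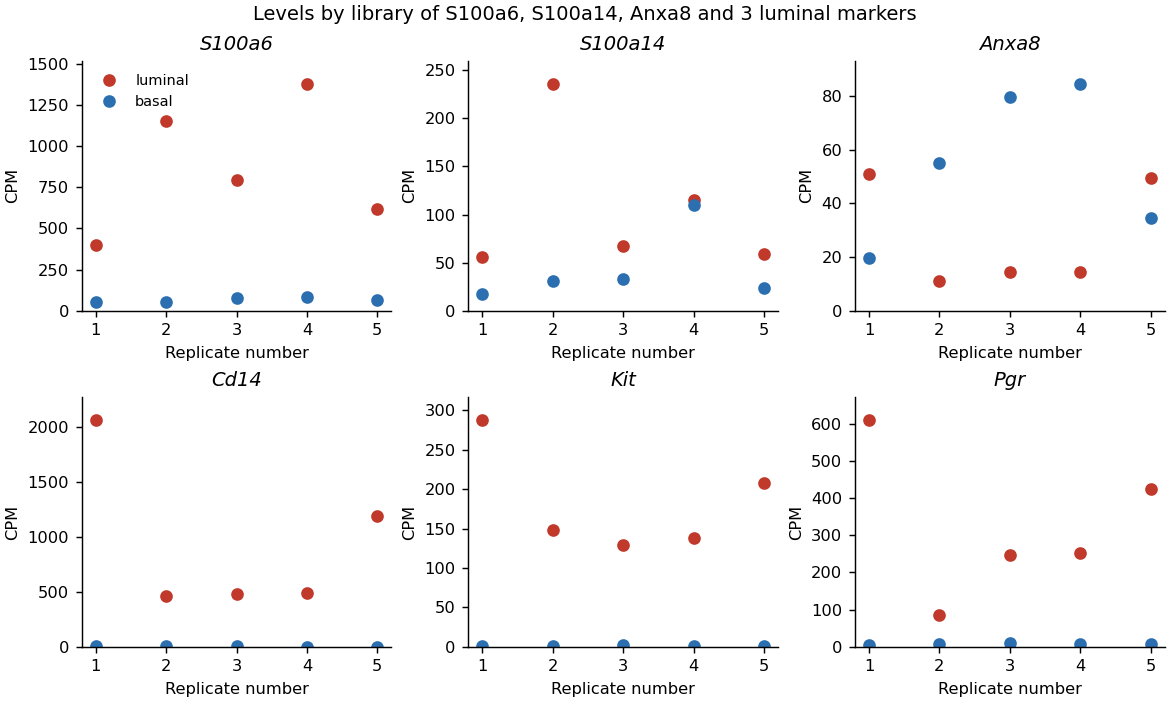
CPM of S100a6, S100a14 and Anxa8 (top) and of the luminal markers Cd14, Kit and Pgr (bottom) in each library, by replicate number, with luminal in red and basal in blue. Anxa8 is higher in the luminal library for replicates 1 and 5 and higher in the basal library for replicates 2, 3 and 4.

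Levels of different genes were compared per kilobase of the longest coding transcript. They were compared within each family only, since Bowtie2 does not split reads over splice junctions, which are more frequent in annexin transcripts. The share of read starts that cross a junction also differs within a family, at 42.9% in Anxa2, 36.9% in Anxa1 and 34.6% in Anxa5. The order of genes with close levels is therefore uncertain. Among the S100 genes S100a6 stood first in luminal cells, at a mean of 1189 CPM per kilobase, followed by S100a11 (497), S100a10 (289) and S100a16 (209). In basal cells S100a10 (285) came before S100a11 (133), S100a16 (111) and S100a6 (90.1). Among the annexins Anxa2 (461) and Anxa1 (457) were highest in luminal cells, and Anxa5 (247) and Anxa2 (212) in basal cells, where Anxa1 was at 31.1 CPM per kilobase. The 16 S100 protein genes summed to 1824 ± 639 CPM (SD) in the luminal libraries and 529 ± 151 CPM (SD, n = 5 each) in the basal ones. S100a6 made up 36.9% to 51.7% of the luminal sum and 10.9% to 14.1% of the basal sum. The 12 annexins summed to 2345 ± 41.5 CPM (SD) in the luminal libraries and 1599 ± 117 CPM (SD, n = 5 each) in the basal ones. The luminal range was 2305 to 2399 CPM for the annexins and 1081 to 2670 CPM for the S100 genes. Over the tested genes with the offsets, the S100 sums were 1336 ± 237 CPM (SD) in luminal and 655.6 ± 95.7 CPM (SD, n = 5 each) in basal libraries, and the annexin sums 2090 ± 101 CPM and 1717 ± 40.5 CPM. The luminal ranges were then 1035 to 1584 CPM for the S100 genes and 1958 to 2236 CPM for the annexins.

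The ratio of an annexin to its S100 partner asks whether both change alike. Log2 ratios of CPM were taken within each library, and 3 pairs were compared by an exact two-sided permutation test of 5 against 5, whose smallest possible p is 0.00794. Anxa2 to S100a10 was 1.80 ± 0.37 (SD) in the luminal libraries and 0.69 ± 0.29 (SD, n = 5 each) in the basal ones on the log2 scale, a difference of 1.11. Anxa1 to S100a11 was 1.59 ± 0.11 (SD) in the luminal libraries and -0.38 ± 0.19 (SD, n = 5 each) in the basal ones, a difference of 1.97. Both pairs thus held more annexin transcript per S100 transcript in luminal cells. Anxa11 to S100a6 went the other way, at -4.27 ± 0.79 (SD) in the luminal libraries and -0.78 ± 0.37 (SD, n = 5 each) in the basal ones, a difference of -3.49. In each pair the groups did not overlap (exact permutation p = 0.00794, and 0.00794 after adjustment over the 3 pairs). With the same-numbered libraries taken as pairs, sign flips gave an exact p of 0.0625 for each ratio, the smallest that 5 pairs allow, so that no ratio passed. With the offsets the differences were 1.47, 2.54 and -2.88. S100a8 to S100a9 could not be formed, because S100a9 had 1 count in all.

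**Figure D5:**
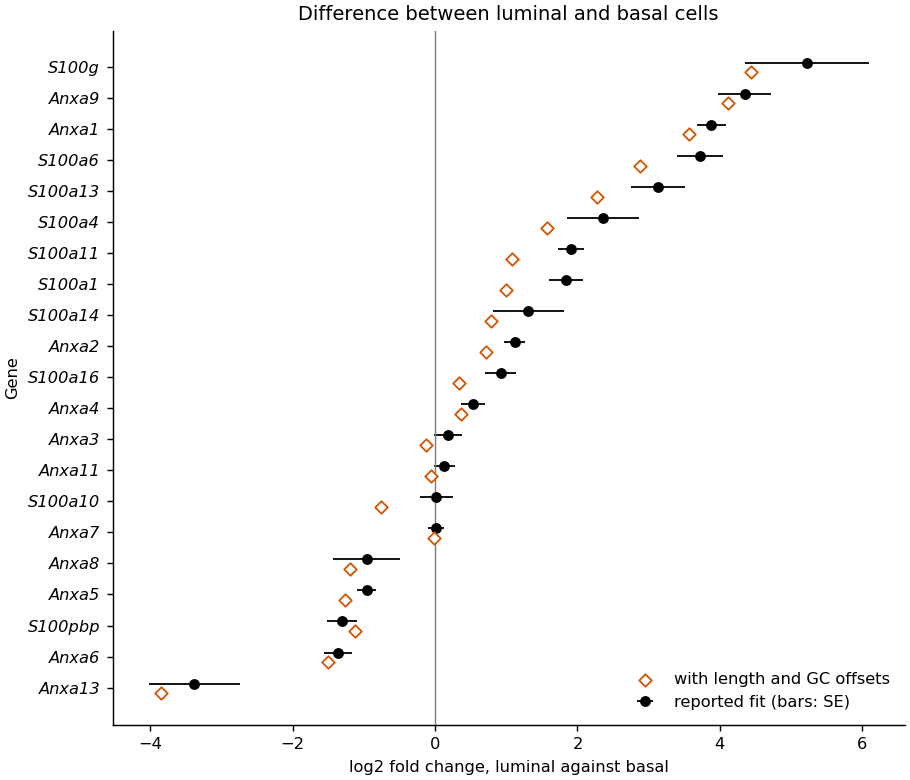
Log2 fold change, luminal against basal, of the 21 tested genes. Black points with bars give the value and its SE, and open diamonds the value with offsets for transcript length and GC content. Diamonds lie to the left of the points for all genes but S100pbp, and S100a10 moves from 0.02 to -0.76.

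Promoter sequence is printed for some members only, for the reasons given with each. Size of difference was not the rule, and Anxa9 and S100g, whose differences were large, are not printed. The windows are the 250 bases before the start of a RefSeq transcript (GRCm38.p6) on the strand of the gene, 5′ to 3′, and 23 of the 29 genes matched. Capitals mark matches, on either strand, to TATAA (the TATA box), TGANTCA (the AP-1 motif) or CATTCC (the TEAD motif), and the CArG box bound by SRF was also searched. The first 2 windows are those of the luminal genes Anxa1 (chr19:20390672-20390921, minus strand) and Anxa2 (chr9:69453433-69453682, plus strand). Next come S100a11 (chr3:93520246-93520495, plus strand), the partner of Anxa1, and S100a6 (chr3:90612644-90612893, plus strand), the S100 gene with the most luminal counts. The window of S100a13 (chr3:90514185-90514434, plus strand) is shown because 104 of its 250 bases also lie before the start of S100a1 on the other strand. Anxa5 (chr3:36475888-36476137, minus strand) stands for the basal annexins, of which Anxa6 and Anxa13 were not among the genes matched.
Anxa1: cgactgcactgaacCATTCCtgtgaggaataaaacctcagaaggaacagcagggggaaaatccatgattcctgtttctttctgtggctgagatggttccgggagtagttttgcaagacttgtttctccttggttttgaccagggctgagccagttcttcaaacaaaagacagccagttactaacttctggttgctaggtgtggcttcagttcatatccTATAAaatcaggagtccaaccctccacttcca
Anxa2: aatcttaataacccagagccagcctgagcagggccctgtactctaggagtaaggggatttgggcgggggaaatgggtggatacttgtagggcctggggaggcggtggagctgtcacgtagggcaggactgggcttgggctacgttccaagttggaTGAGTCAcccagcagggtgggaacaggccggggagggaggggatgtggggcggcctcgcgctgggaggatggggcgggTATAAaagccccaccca
S100a11: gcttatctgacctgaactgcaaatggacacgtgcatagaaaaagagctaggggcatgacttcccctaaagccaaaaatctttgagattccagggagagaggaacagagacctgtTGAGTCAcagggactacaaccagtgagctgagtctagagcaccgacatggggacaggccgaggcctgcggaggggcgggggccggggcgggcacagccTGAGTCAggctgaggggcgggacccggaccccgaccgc
S100a6: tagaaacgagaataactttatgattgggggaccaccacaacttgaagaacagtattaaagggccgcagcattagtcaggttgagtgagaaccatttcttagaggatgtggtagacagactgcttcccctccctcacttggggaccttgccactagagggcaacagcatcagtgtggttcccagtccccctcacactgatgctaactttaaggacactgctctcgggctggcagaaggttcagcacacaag
S100a13: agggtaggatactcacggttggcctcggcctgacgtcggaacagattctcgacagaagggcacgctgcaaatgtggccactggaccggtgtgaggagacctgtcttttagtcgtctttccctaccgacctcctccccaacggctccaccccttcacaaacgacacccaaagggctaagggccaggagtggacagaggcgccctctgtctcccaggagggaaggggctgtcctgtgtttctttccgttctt
Anxa5: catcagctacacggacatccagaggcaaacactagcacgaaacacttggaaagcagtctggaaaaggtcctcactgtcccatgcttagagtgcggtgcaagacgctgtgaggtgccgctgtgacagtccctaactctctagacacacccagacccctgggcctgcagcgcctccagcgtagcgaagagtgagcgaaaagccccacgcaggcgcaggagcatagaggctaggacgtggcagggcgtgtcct

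The Anxa1 window holds TATAA 28 bases before the start and CATTCC 231 bases before it. Anxa2 holds TATAA at 13 bases and TGAGTCA at 89 bases, and S100a11 holds TGAGTCA at 32 and at 130 bases. The windows of S100a6, S100a13 and Anxa5 hold none of these letters. Over the 31 windows of all members, 7 held TATAA, 4 held TGANTCA, 3 held CATTCC and 0 held a CArG box. Over all 32841 windows of the genome table the shares were 22.8%, 6.75%, 12.6% and 1.47%. The printed windows also differ in CpG dinucleotides, from 2 in Anxa1 and 3 in S100a6 to 13 in Anxa5 and S100a13, beside a median of 6 over all windows. These are matches of letters, and no binding was measured.

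Other genes of the same pathways were taken from lists. Of 13 binding partners and receptors of S100 proteins and annexins, 12 were tested, of which 4 were higher in luminal cells, 2 were higher in basal cells and 6 did not pass, with a median log2 fold change of 0.11, beside the 64.8% of all genes that were called in either direction. With the offsets the number higher in basal cells was 4. Both plasminogen activators, the proteases whose substrate binds the Anxa2 and S100a10 complex, were higher in basal cells. Plat (tissue type) was at 60.3 ± 12.9 CPM (SD) in the basal libraries and 1.2 ± 0.802 CPM (SD, n = 5 each) in the luminal ones (log2 -5.62 ± 0.44 SE, edgeR adjusted p = 6.22e-08). Plat reached the count filter through its basal libraries and was not tested when at least 10 counts were required in every library. Plau (urokinase) had a log2 fold change of -2.72 (edgeR adjusted p = 1.2e-07). On the luminal side were Tlr4, a receptor of S100a8 and S100a9 (1.81), Pdcd6, a calcium sensor that binds Anxa7 and Anxa11 (0.69), and Ahnak, a scaffold of the Anxa2 and S100a10 complex (0.68). Pdcd6 did not pass with the offsets (0.25, adjusted p = 0.137). Cacybp, the S100a6 partner, was at 45.9 ± 11.5 CPM (SD) in the luminal libraries and 41.0 ± 11.5 CPM (SD, n = 5 each) in the basal ones and did not pass.

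Of 12 genes of membrane repair, 11 were tested, of which 5 were called toward luminal and 4 toward basal cells (median 0.05), beside the same 64.8% of all genes. The 2 ferlins, calcium-binding membrane fusion proteins that work beside annexins, went opposite ways. Dysf (dysferlin) was at 40.7 ± 9.51 CPM (SD) in the basal libraries and 2.08 ± 0.274 CPM (SD, n = 5 each) in the luminal ones (log2 -4.28 ± 0.21 SE, edgeR adjusted p = 6.27e-10). Myof (myoferlin) was higher in luminal cells, by 0.81 on the log2 scale (edgeR adjusted p = 0.00195). The caveolar coat genes Cavin1 (-2.06) and Ehd2 (-1.33) were higher in basal cells, and the membrane scission genes Chmp3 (1.64) and Chmp2a (0.91) in luminal cells, Chmp2a not passing with the offsets (adjusted p = 0.0507).

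Of 27 other genes of EF-hand proteins, 23 were tested, of which 9 were called toward luminal and 7 toward basal cells (median 0.19), a share near the 64.8% of all genes. With library totals 13 were called toward luminal cells, and with upper-quartile factors 11, beside 7 toward basal cells each time. Of all genes, 64.4% and 65.0% were then called in either direction. Calls toward luminal cells rose over all genes too, from 4904 to 5705 and 5439. Those toward basal cells fell from 4558 to 3705 and 4051. Named by size of change, the luminal genes were Ncald (5.11), Tesc (4.98) and Gca (4.24), all of them calcium sensors at a luminal mean of 11.4 to 15.2 CPM. These 3 genes reached the count filter through their luminal libraries. With at least 10 counts required in every library, where fewer genes were tested, 6 of the list were called toward luminal and 4 toward basal cells. Of all genes, 65.0% were called in either direction under that filter. The basal genes were Rcn3 (-8.13) and Calu (-1.99), which act in the secretory pathway, and the actin-binding Efhd2 (-1.27). Rcn3 was at 226 ± 23.8 CPM (SD) in the basal libraries and 0.777 ± 0.462 CPM (SD, n = 5 each) in the luminal ones, so that it reached the count filter through its basal libraries. Of 9 further genes, the fused-type S100 genes and S100a7-type genes, 8 were in the table and 2 were tested. Of these 2, 1 was higher in luminal cells, beside 33.6% of all genes tested.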

How the data were processed

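The authors deposited raw read counts per Entrez gene for 10 libraries, without normalization. The study describes poly(A)-selected libraries read as single ends of 51 bases, cutadapt and bowtie2 at default settings on mm10, and the submitters' processing notes name cutadapt 4.2 and Bowtie2 2.3.5.1. The counting tool, annotation and strand setting are not given in the sources used here. Bowtie2 does not split reads over splice junctions, and by annotation 6.9% to 23.3% of 51-base read starts in S100 transcripts and 22.8% to 49.7% in annexin transcripts cross one, so levels of the 2 families are not strictly comparable. A symbol from a RefSeq table (GRCm38.p6) was matched to 24570 genes, and all 29 members were found.

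Genes were filtered with filterByExpr (minimum count 10, minimum total 15), scaled with TMM factors and compared with edgeR 4.0.16 in R 4.3.3 (quasi-likelihood test, cell type as the only term, Benjamini-Hochberg over 14609 genes). Fold changes are luminal against basal, and SEs are their size over the root of edgeR's F statistic. Ratios used a pseudocount of 0.5 CPM. Replicate numbers come from the titles and go with the leading number of the descriptions, read as the animal. Correlations of the deviations of same-numbered libraries ranged from -0.1337 to 0.2517, with a mean of 0.0442 against -0.0072 for differently numbered ones. No 2 libraries agreed within sampling noise (lowest chi-square per degree of freedom 14.4). Alternatives were other scalings, other filters, DESeq2 1.42.0, limma voom (limma 3.58.1), the replicate block and leaving out each library; length and GC offsets (lowess, span 0.3, from GENCODE M21 transcripts, known for 97.8% of genes tested) and leaving out replicate 4 of both cell types were added after seeing the data. All members were described; from each pathway list up to 3 genes per direction were named, those with the largest change among called genes with a mean of 10 CPM or more in either group. One marker list is not reported here. Members and lists were chosen with earlier results of these data known. In data simulated for the same groups and 14609 genes, edgeR recovered 47 of 73 genes changed by log2 1, 58 of 63 changed by log2 2 and 64 of 64 changed by log2 3, with 5 false calls. No other genes were changed, a far smaller share than the 64.8% of genes called in the real data. Recovery and false calls may therefore differ there.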

Additional observations from a re-analysis of the deposited data

Results flagged for a closer look

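In groups of 5 libraries, a library was singled out when its gap to the nearest other one took up more of the range than Dixon's limit of 0.71 allows. Of 50 groups, 8 held such a library, where chance gives about 2.5 if the groups are independent and normally spread. The genes share their libraries, and short genes as a whole were high in basal replicate 4, so no excess over chance is read from this. The chance count also does not hold for the groups of S100a8, S100b and S100g. There the other libraries were at or near 0, and counts in a single library easily pass the limit. Basal replicate 4 accounted for 4 of the 8. S100a13 was at 13.9 CPM there, against 5.99 to 7.97 CPM in the other basal libraries, S100a14 at 110 CPM against 17 to 33.4 CPM, and Anxa2 at 399 CPM against 263 to 302 CPM. S100b was at 1.44 CPM (23 counts) in this library and at 0 in the other basal libraries.

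S100a8 was at 0.840 CPM (11 counts) in luminal replicate 4, against at most 0.0613 CPM in the other luminal libraries, and at 0.387 CPM (5 counts) in basal replicate 3, against at most 0.0682 CPM. Its partner S100a9 had 0 counts in both libraries. The neutrophil markers without Ltf and Lcn2, which mammary epithelium also makes, summed to 0.305 CPM and 0.851 CPM in these libraries, against 0.30 to 1.1 CPM over all 10 libraries. S100g was at 0.240 CPM (4 counts) in basal replicate 5 and at 0 in the other basal libraries. Anxa13 was at 0.737 CPM (14 counts) in luminal replicate 2, against at most 0.190 CPM in the other luminal libraries.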

How the results depend on the processing

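Of 437 values of the 21 tested members under the alternatives, 398 kept their direction and their side of the threshold, 11 lost the call, 4 gained one and 24 changed sign, and 13 genes kept both throughout. The changes of sign were in genes that did not pass, of which S100a10 alone passed in the other direction, with the offsets: S100a10 (-0.0137 with DESeq2's size factors and with DESeq2, -0.0412 without the filter, -0.76 and -0.75 with length and GC offsets without and with the replicate block), Anxa7 (-0.0302, -0.0303, -0.0578, -0.00826 and -0.0093 in the same order, the first 2 being size factors and DESeq2), Anxa3 (-0.13 and -0.17 with the offsets) and Anxa11 (-0.0595 and -0.0555). Leaving out 1 library moved S100a10 from -0.11 to 0.18 and Anxa7 from -0.0218 to 0.0396. It left 11 to 12 members called toward luminal and 4 to 5 toward basal cells. These were 71.4% to 81.0% of the members tested, beside 60.2% to 64.4% of all genes. Library totals shifted the median of all genes by 0.19 and upper-quartile factors by 0.122.

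The replicate block called 12 members toward luminal and 4 toward basal cells and changed no member's call (76.2% of members tested, beside 63.5% of all genes). For the ratios, sign flips within replicate numbers (the pairing) kept the differences of 1.11, 1.97 and -3.49 at an exact p = 0.0625, the smallest that 5 pairs allow. Without S100a6, the S100 sum was 954.6 CPM in luminal cells, and without Anxa2, the most counted annexin over both cell types together, the annexin sums were 1679 CPM in luminal and 1292 CPM in basal cells. With the offsets the annexin sums were 2090 CPM and 1717 CPM. The luminal annexin sum was 2507 CPM with library totals and 2448 CPM with upper-quartile factors. Partner and receptor genes higher in luminal cells came to 2 with offsets and block, and those higher in basal cells to 4 with the offsets, 4 with offsets and block, and 1 with at least 10 counts in every library, where fewer genes were tested. That filter also left 4 other EF-hand genes higher in basal cells. Without a filter 2 fused-type or S100a7-type genes were higher in luminal cells, beside 4966 of 20612 genes. Of all genes, 63.9% were called with the offsets, 62.1% with offsets and block, and 65.0% with at least 10 counts in every library. The cause of these changes was not tested. Nothing in the labels gives a batch. Genes under about 3 counts a library could not be compared at this depth.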
